A study of Chlamydomonas reinhardtii with 18 samples.

Results

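The 131 genes described here are those of the green alga *Chlamydomonas reinhardtii* whose transcripts were higher after 24 h in untreated dark cultures and higher again, at the same hour, in cultures given nitrite. They were chosen from measured values. Levels are in CPM, a gene's reads relative to the scaled total of its library. With 0.5 added to each group mean, the control mean at 24 h had to be at least 2.5 times that at 15 min. The nitrite mean at 24 h had to be at least 2.5 times the control mean at 24 h, and at least 5 CPM. Of the 13564 features with enough reads to test, 711 met the first condition, 514 the second and 133 both, of which 131 also had 5 CPM. The set is thus 0.966% of the features tested.

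The samples were cell pellets of strain 6145c, grown in darkness at 25 °C. Nitrite was added to 10 mM in 3 flasks, and 3 control flasks received none. RNA was sampled from both arms 15 min, 3 h and 24 h after that addition, which gave 18 libraries in 6 groups of 3. Control cells were in the dark throughout, and had been so before the first sample, so 24 h is a time since the nitrite addition and not since the start of darkness. The flasks are separate cultures per the design text, and the same flasks were sampled at all times.

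A *Chlamydomonas* cell in the dark cannot photosynthesise, and lives on stored starch or lipid or on organic carbon such as acetate. Nitrite is an intermediate of nitrate assimilation. It is reduced to ammonium in the chloroplast, and a side reaction gives nitric oxide, a signalling gas that the alga can turn into nitrous oxide. Neither the deposited tables nor the reference gene table pairs the identifiers of these 131 genes with names or functions. They are therefore given by identifier and by position in assembly Chlamydomonas_reinhardtii_v5.5, with no role.

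Gene totals ran from 6695500 to 8469882 reads per library. On the second principal component of all genes, number 2 of the nitrite 15 min group was at -12.4, near the 3 h nitrite libraries, while numbers 1 and 3 were at 43.4 and 42.5. Number 2 of the nitrite 3 h group was at 46.2, near the 15 min nitrite libraries, while numbers 1 and 3 were at -13.4 and -15.6. Multiply aligned reads made up 36.5% of all reads in number 3 of the control 3 h group and 16.7% to 21.6% in the other libraries. Whether the labels of both number 2 libraries were exchanged cannot be told from the files, and an exchange would change every nitrite value of number 2 at 15 min and 3 h. These 3 libraries were kept under their labels. The tests and the counts over genes at 15 min and 3 h are also given without them, a choice made with the data known.

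The 131 genes together took 2.89% ± 0.170 of gene reads with nitrite at 24 h and 1.15% ± 0.234 without (SD, n = 3 each). The 3 nitrite libraries held 2.72%, 2.90% and 3.05%, and the 3 control libraries 0.931%, 1.11% and 1.39%. At 3 h the shares were 0.386% ± 0.0406 with nitrite and 0.202% ± 0.0562 without. At 15 min they were 0.395% ± 0.0579 with nitrite and 0.266% ± 0.0455 without. Without the 3 libraries that stand apart, the means were 0.365% with nitrite and 0.227% without at 3 h, and 0.429% with nitrite at 15 min. This share is taken of each library's own total, without the scaling used for CPM. On that footing the median over all features was itself 0.26 higher with nitrite at 3 h on the log2 scale, against -0.01 with scaling. In control 3 h numbers 1, 2 and 3 the share was 0.263%, 0.191% and 0.153%. The summed CPM of the set ran the other way there, at 1991, 2147 and 2524. The differences in share at 24 h follow from the choice of genes. In bulk cultures, a change in how many cells carry a transcript and a change in its amount per cell cannot be told apart.

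**Figure D1:**
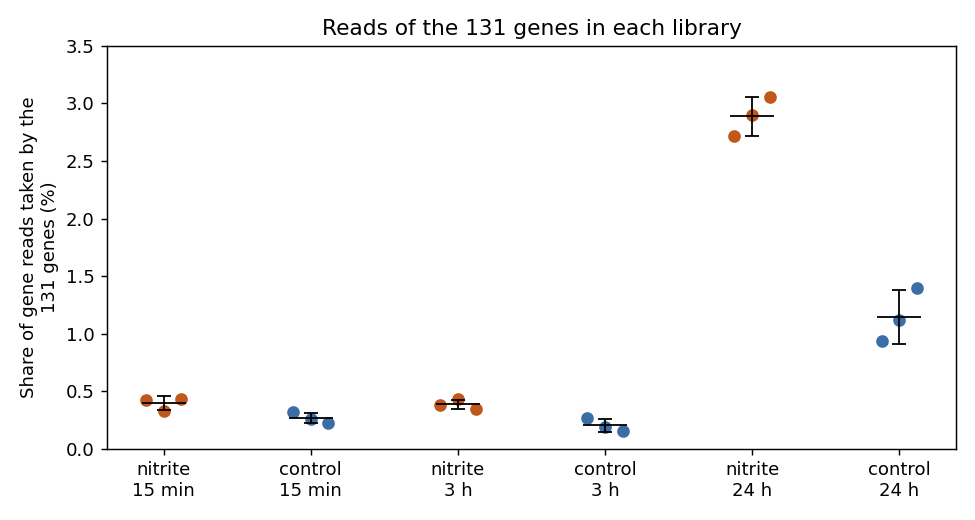
Share of gene reads (%, vertical axis) taken by the 131 genes in each of the 18 libraries (points), by group along the horizontal axis, with the group mean and SD (bars, n = 3). At 24 h the points lie at 2.72% to 3.05% with nitrite and at 0.931% to 1.39% without, all above the 12 earlier libraries.

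The set spanned a wide range of sizes. The ratio of nitrite to control at 24 h, by which the genes were chosen, had a median of 3.41 and ran from 2.51 to 18.4. The ratio of control 24 h to control 15 min had a median of 3.78 and ran from 2.504 to 37.6. Together they set the nitrite cultures of 24 h 7.01 to 205 times above the control cultures of 15 min, with a median of 14.3. The nitrite ratio was the larger of the 2 in 55 genes. It was 5 or more in 31 genes, the control ratio was 5 or more in 36, and 10 genes had both. In 130 of the 131 genes every nitrite library of 24 h was above every control library of 24 h, and above all 12 libraries of 15 min and 3 h. The rule used the group means of 24 h, so this separation follows in part from the choice of genes. It was not counted over all features and is a description only. Just inside the limits lay Cre02.g112150, with a control ratio of 2.504, and Cre12.g557252, with a nitrite ratio of 2.51. Just outside lay Cre13.g605300, with a control ratio of 2.49, and Cre06.g310950, with a nitrite ratio of 2.49. The CPM limit mattered little, since the lowest member stood at 6.09 CPM and the nearest gene under the limit, Cre03.g207153, at 4.69 CPM.

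**Figure D2:**
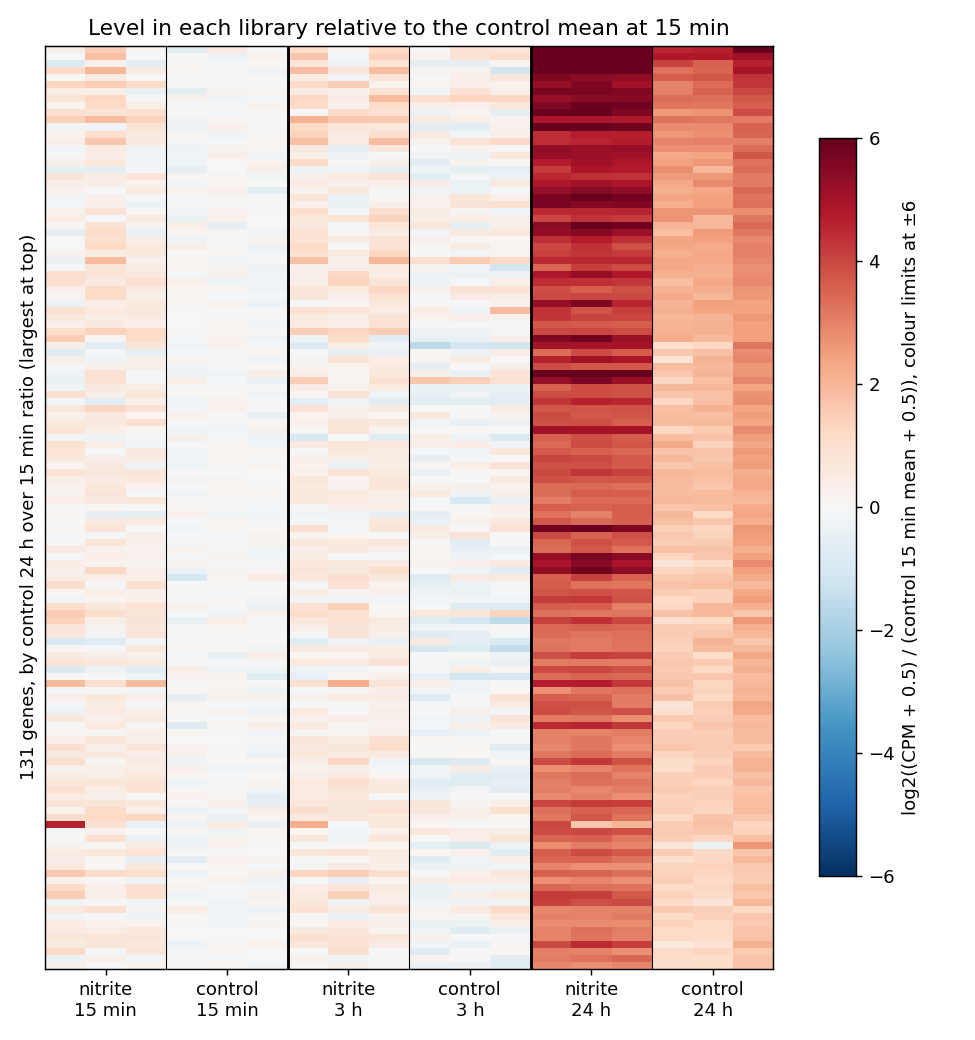
Level of each of the 131 genes (rows, ordered by the control 24 h over 15 min ratio) in each library (columns, 3 per group), as log2((CPM + 0.5) / (control mean at 15 min + 0.5)). Nitrite libraries stand left of the control libraries of the same time. The columns of 15 min and 3 h are pale, those of control 24 h are red and those of nitrite 24 h are darkest, and the third control library of 24 h is redder than its neighbours in most rows.

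Cre03.g179800 (chromosome 3, 4919034 to 4920573) had by far the most reads of the set. It stood at 12222, 11042 and 10524 CPM in the nitrite libraries of 24 h, against 3280, 3461 and 5372 CPM in the control libraries of 24 h. Before that it was between 228 and 466 CPM in the nitrite libraries and between 240 and 421 CPM in the control libraries. Its reads were 0.799% to 0.865% of all gene reads with nitrite at 24 h and 0.304% to 0.495% without. Read totals are not corrected for transcript length, so they rank genes by reads and not by molecules.

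The next in reads, Cre07.g337100 (chromosome 7, 3642543 to 3644557), had 5393, 4142 and 3929 CPM with nitrite at 24 h and 1436, 1526 and 1712 CPM without. Its nitrite libraries of 15 min were at 914, 415 and 858 CPM. The low value there is that of number 2, and the high value at 3 h, 797 CPM against 410 and 507 CPM, is again that of number 2. These are the libraries that lie with the other time. Cre12.g496150 (chromosome 12, 3480230 to 3485170) averaged 1173 ± 96.1 CPM with nitrite at 24 h and 376 ± 84.6 CPM without. Cre03.g174850 (chromosome 3, 4313725 to 4317407) averaged 980 ± 113 CPM with nitrite and 269 ± 64.7 CPM without. Cre07.g354700 (chromosome 7, 6016746 to 6020657) averaged 927 ± 89.5 CPM with nitrite and 301 ± 77.5 CPM without (SD, n = 3 each). In these 3 genes, too, no library of the 2 groups overlapped.

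Cre14.g611200 (chromosome 14, 481140 to 484027) differed from the other 5 in its nitrite ratio of 7.26, against 2.79 to 3.64 for them. It stood at 1166, 982 and 1063 CPM with nitrite at 24 h and at 97.3, 125 and 219 CPM without. At 3 h its nitrite libraries, at 27.7, 15.9 and 28.4 CPM, overlapped with the control libraries, at 26.8, 37.5 and 41.5 CPM.

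**Figure D3:**
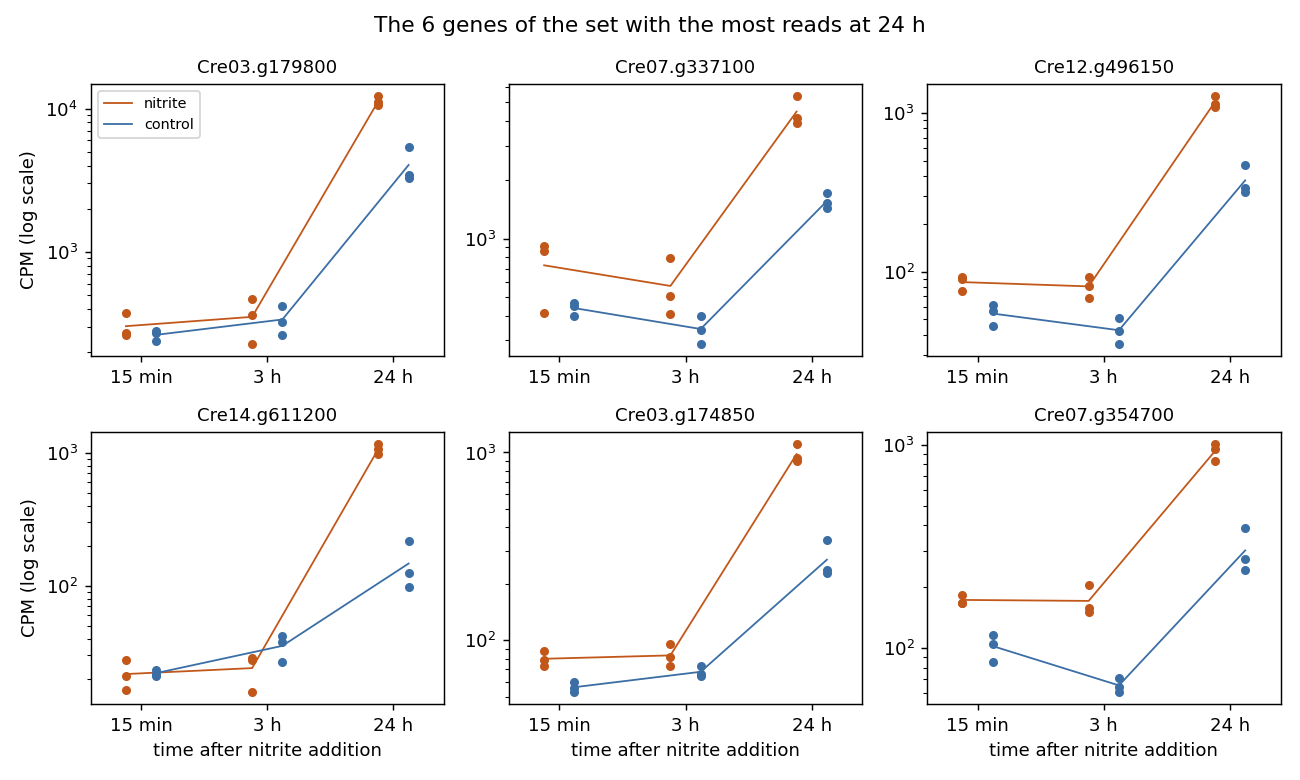
CPM (log scale, vertical axis) of the 6 genes with the most reads at 24 h, by time (horizontal axis), for each nitrite library (orange points) and control library (blue points), with lines through the group means. In all 6 panels the 3 nitrite libraries of 24 h lie above the 3 control libraries of 24 h, and both lines climb between 3 h and 24 h. Cre07.g354700 and Cre12.g496150 have nitrite libraries above their control libraries at all 3 times.

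The 5 genes with the largest nitrite ratios did not pass the test of nitrite against control at 3 h, by edgeR's quasi-likelihood test adjusted over all features. Cre06.g287000 (chromosome 6, 5728396 to 5733330) had 106, 99.0 and 101 CPM with nitrite at 24 h and 3.27, 4.60 and 7.36 CPM without, a ratio of 18.4. At 3 h it averaged 1.10 ± 0.249 CPM with nitrite and 1.10 ± 0.654 CPM without. The edgeR log2 fold change there was 0.07 (SE 0.50), with an adjusted p of 0.95. Cre07.g329350 (chromosome 7, 2486098 to 2489673) had 262, 289 and 232 CPM with nitrite at 24 h and 12.2, 10.8 and 28.5 CPM without, a ratio of 14.8. Cre07.g336600 (chromosome 7, 3575876 to 3582611) averaged 262 ± 42.7 CPM with nitrite and 21.1 ± 9.18 CPM without, a ratio of 12.2. At 3 h the edgeR log2 fold changes of these genes were 0.16 (SE 0.37, adjusted p = 0.833) and 0.18 (SE 0.28, adjusted p = 0.738). Cre10.g428966, also among the 5 with a ratio of 12.8, was at 1.10 at 3 h (SE 0.34, edgeR adjusted p = 0.0754). Its nitrite and control libraries of 3 h did not overlap. Cre13.g571520 (chromosome 13, 1348544 to 1352994), with a ratio of 9.94, stood at 51.2 to 78.4 CPM with nitrite at 24 h and 4.85 to 7.36 CPM without.

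Of the 5 genes with the largest control ratios, Cre03.g179800, described above, already had 7162 reads in the control libraries of 15 min. The other 4 had 11 to 62. Cre03.g197850 (chromosome 3, 6730496 to 6734284) had 66.8, 72.7 and 183 CPM in the control libraries of 24 h, against 1.33, 3.51 and 2.29 CPM in those of 15 min, a ratio of 37.6. With nitrite it reached 574, 672 and 526 CPM at 24 h. Cre08.g380800 (chromosome 8, 4251040 to 4254401) had 66.9, 66.3 and 82.6 CPM in the control libraries of 24 h and 2.08, 1.40 and 2.29 CPM in those of 15 min. Its control libraries at 3 h were at 2.41, 3.97 and 4.70 CPM, all above those of 15 min and far below those of 24 h. Cre06.g254300 (chromosome 6, 824863 to 826768) had 352 reads in all in the control libraries of 24 h and 11 in those of 15 min, and 1130 reads with nitrite at 24 h. Its fold thus rests on few reads at 15 min.

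In the untreated cultures the increase came after 3 h for nearly all of these genes. The control mean at 3 h was within 1.5-fold of that at 15 min in 114 of 131 genes (87.0%, against 79.1% of all features tested). It was at least 1.5-fold above in 11 and at least 1.5-fold below in 6. On the log2 scale with 0.5 CPM added, the median difference between 3 h and 15 min in the control arm was 0.03, against 0.00466 over all features. The median between 24 h and 3 h was 2.0, against -0.00951 over all features. In 116 genes less than 25% of the log2 difference between 15 min and 24 h was present at 3 h. Without control 3 h number 3, 115 genes were within 1.5-fold, 6 were above and 10 below, and 120 had less than 25% at 3 h. Because the control libraries of 15 min and 24 h chose the genes, these values are a description, with no test.

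Over 50% of the difference was present at 3 h in 3 genes, named after their values were seen, and in 2 without control 3 h number 3. Cre07.g315550 (chromosome 7, 462967 to 469946) had 5.75, 4.33 and 5.16 CPM in the control libraries of 15 min, 11.2, 15.3 and 12.1 CPM in those of 3 h and 27.3, 26.7 and 40.6 CPM in those of 24 h. No library of these 3 times overlapped with another time. Cre10.g436500 and Cre05.g234653 were the other 2, with control means at 3 h of 1.20 and 1.39 CPM. At the other end, Cre02.g095140 (chromosome 2, 3608106 to 3609894) was lower at 3 h than at 15 min in the control arm, at 5.25, 8.22 and 7.66 CPM against 15.2, 19.9 and 16.6 CPM. At 24 h its control libraries were at 35.4, 41.9 and 166 CPM.

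In the nitrite arm, too, the large step came between 3 h and 24 h. The median log2 difference between these times was 3.39 and the lowest 1.72, against a median of -0.06 over all features. Without nitrite 3 h number 2 the median was 3.42. The nitrite libraries of 24 h chose the genes, so this step follows in part from the choice and gets no test. Between 15 min and 3 h no gene of the set passed the test. Of the 131, 0 were called up and 0 down by edgeR's quasi-likelihood test at an adjusted p under 0.05, as were 0% of all features. The members' median log2 fold change was 0.06, against -0.01 over all features, with 75 of 131 above 0. At an unadjusted p under 0.05 there were 4, or 3.05%, against 1.45% of all features. DESeq2 and limma voom called 0 as well. The comparison of 3 h with 15 min in the nitrite arm uses no library that chose the genes. Of the 131, 21 would fail the low-count filter on the libraries of 15 min and 3 h alone, and entered this test through their reads at 24 h.

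The comparison of 15 min with 3 h depends on the libraries that lie with the other time. Leaving out the 3 libraries that stand apart gave 15 genes (11.5%) called up, against 10.4% of all features, and 8 (6.11%) called down, against 10.8%. Of these libraries, both nitrite ones were picked because they do not lie with their own time, so the calls between the times follow in part from that choice and are no independent test. The share called up is near the background. In Cre07.g315550 the nitrite libraries of 3 h had 18.2, 6.60 and 21.5 CPM and those of 15 min 3.69, 20.5 and 6.11 CPM. Number 2 at each time stands with the other time. Over all libraries edgeR gave 0.61 (SE 0.47, adjusted p = 1) on the log2 scale. Cre06.g254300 showed the same order, at 0.965, 0.287 and 1.11 CPM at 3 h and 0, 0.568 and 0.0970 CPM at 15 min, with 21 and 6 reads in all. Cre08.g377800 (chromosome 8, 3861443 to 3866874) had the lowest p with all libraries. It stood at 2.57, 2.87 and 2.59 CPM at 3 h and 3.80, 4.2 and 4.66 CPM at 15 min, with no overlap, and edgeR gave -0.65 (SE 0.24, adjusted p = 1).

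Nitrite against control at 3 h is the other comparison that uses no library of the rule, although the flasks are the same. Of the 131 genes, 22 (16.8%) were called higher with nitrite and 0 lower by the edgeR test, against 1.95% of all features up and 0.774% down. At an unadjusted p under 0.05, 56 were higher and 2 lower, against 11.5% and 10.9% of all features. DESeq2 called 36 up and 0 down, against 4.22% and 2.19% of all features, and limma voom called 18 up and 0 down, against 1.79% and 1.04%. The median log2 fold change was 0.56, against -0.02 over all features, and 113 of 131 were above 0, against 48.4% of all features. The 3 nitrite libraries were all above the 3 control libraries in 53 genes (40.5%, against 10.8% of all features), and all below in 2 (1.53%, against 12% of all features). Without the 3 libraries that stand apart, which leaves 2 against 2, these counts were 90 and 4, against 22.1% and 25.2% of all features. Some members had few reads at this time: 25 would fail the low-count filter on the 3 h libraries alone, and 3 had 0 reads in the control libraries. Of the 22 genes called, 21 passed that filter.

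**Figure D4:**
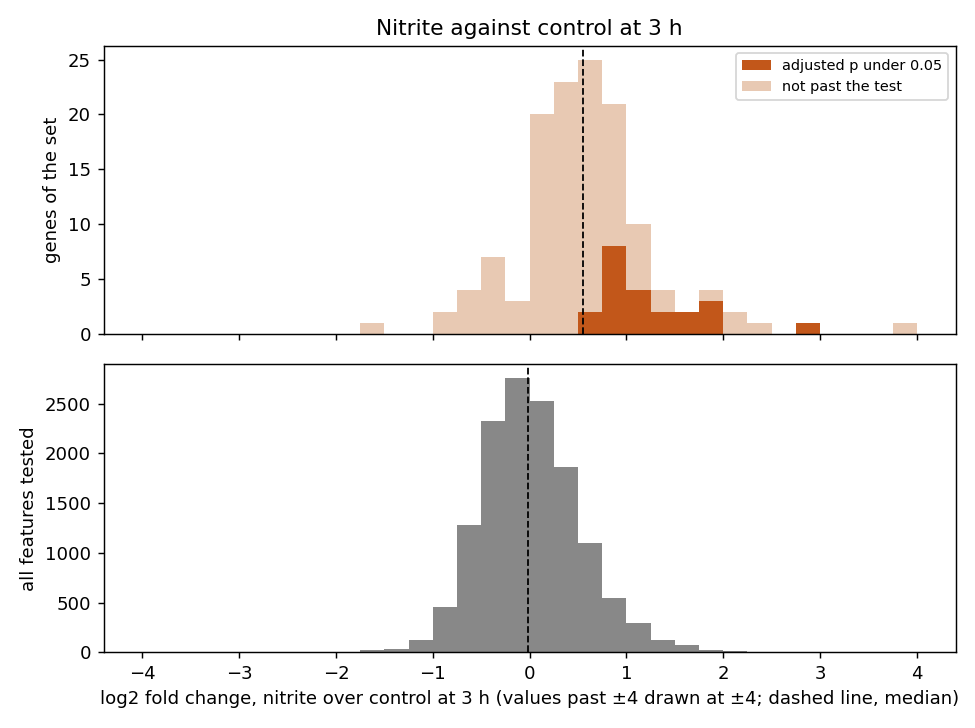
Distribution of edgeR log2 fold changes of nitrite over control at 3 h (horizontal axis; vertical axes, number of genes) for the 131 genes (upper panel, with the 22 past the test in dark orange) and for all 13564 features tested (lower panel). The dashed medians lie at 0.56 and -0.02.

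The genes called at 3 h were higher with nitrite than without by 0.67 to 2.80 on the log2 scale, 12 of them at least 2-fold. Cre12.g517700 (chromosome 12, 4072806 to 4077413) had 93.0, 83.0 and 93.8 CPM with nitrite and 26.2, 27.3 and 30.2 CPM without, the lowest p of the set. edgeR gave a log2 difference of 1.69 (SE 0.17, adjusted p = 1.7e-05). At 15 min it was at 69.2, 86.1 and 71.5 CPM with nitrite and 31.6, 35.6 and 32.5 CPM without, so the arms did not overlap at any of the 3 times. Cre03.g155350 (chromosome 3, 1927266 to 1932452) had 56.5, 41.1 and 40.0 CPM with nitrite at 3 h and 18.5, 17 and 15.3 CPM without (log2 1.43, SE 0.19, edgeR adjusted p = 0.000815). At 24 h its control libraries were at 128, 121 and 115 CPM, with number 3 the lowest.

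Cre07.g354700 had 158, 203 and 149 CPM with nitrite at 3 h and 63.9, 60.8 and 71.4 CPM without (1.38, SE 0.20, edgeR adjusted p = 0.00183). Its nitrite level at 3 h differed from that at 15 min by less than the spread, at 170 ± 29.1 CPM at 3 h and 172 ± 9.38 CPM at 15 min. The control level was lower at 3 h, at 65.4 ± 5.48 CPM, than at 15 min, at 102 ± 15.1 CPM. Cre16.g658850 (chromosome 16, 2235853 to 2239608) had 31.3, 36.2 and 34.5 CPM with nitrite at 3 h and 16.1, 18.6 and 13.8 CPM without (1.06, SE 0.18, edgeR adjusted p = 0.00709). Cre02.g116500 (chromosome 2, 6499550 to 6505579) had 24.7, 23.6 and 29.9 CPM with nitrite and 15.0, 13.7 and 11.6 CPM without (0.94, SE 0.17, edgeR adjusted p = 0.0111). The largest called difference, of Cre01.g022950, was 2.80 (SE 0.52, edgeR adjusted p = 0.0115) and rests on 40 reads with nitrite and 4 without.

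How many genes were called at 3 h depended on single libraries. Without control 3 h number 2 there were 4 (against 0.0369% of all features up), without nitrite 3 h number 2 there were 6 (against 0.221%), and without control 3 h number 3 there were 9 (against 0.435%). Calls over all features fell as well, to 5, 30 and 59 up in these fits, against 265 with all libraries. Cre12.g517700, Cre03.g155350, Cre07.g354700 and Cre16.g658850 kept their calls in all 6 fits that left out 1 library of this comparison. When only the 2 groups were fitted, Cre12.g517700 kept its call (edgeR adjusted p = 0.0113), and the other 3 lost theirs (edgeR adjusted p = 0.0569, 0.0674 and 0.139 in that order). Cre02.g116500 lost its call without control 3 h number 2 (edgeR adjusted p = 0.0881), as did Cre01.g022950 (0.0778). Without the 3 libraries that stand apart 20 genes were called up (15.3%, against 0.973% of all features) and 0 down (against 0.737%), and 15 of the 22 were among them. The median was then 0.64. Whether the reads with more than 1 alignment in control 3 h number 3 have a part in these calls was not tested; the median over members was 0.60 without that library.

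The early nitrite difference was shared with genes that met the limit on the nitrite ratio but fell short of that on the control ratio. There were 345 genes with a nitrite ratio of at least 2.5 and 5 CPM at 24 h whose control ratio stayed under 2.5. Of these 16.8% were called up at 3 h, with a median of 0.59, the same share as in the set. There were 427 genes with a control ratio of at least 2.5, 5 CPM in the nitrite libraries and a nitrite ratio under 2.5. Of these 3.51% were called up at 3 h, with a median of -0.02. These shares are descriptions, and the differences between the 3 groups of genes were not tested.

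At 15 min the mean was higher with nitrite in 117 of 131 genes, against 52.1% of all features. The median log2 difference was 0.43 (0.5 CPM added), against 0.02 over all features. Without nitrite 15 min number 2 the mean was higher with nitrite in 106 genes, against 47.7% of all features, with a median of 0.36 against -0.02. The rule used the control libraries of 15 min, as a denominator, and chose genes that were low in them. This difference therefore gets no test.

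The control cultures of 24 h differed from each other in these genes. Their mean entered both ratios of the rule, so what follows is a description, with no test. Number 3 was the highest of the 3 control libraries in 121 of 131 genes (92.4%), against 38.9% of all features. Its level was 1.48 times the mean of numbers 1 and 2 at the median gene, against 1.0 over all features. Among genes of at least 5 CPM, the median coefficient of variation in the control libraries of 24 h was 24.1% in the set (103 genes) and 13.3% over all features. In the nitrite libraries of 24 h it was 10.3% in the set and 12.9% over all features. The set was chosen to be high in those libraries, at a median of 80.2 CPM, and these spreads were not compared at matched levels. The library also stood apart over all genes, at 69.0 on the first principal component, between the other control libraries of 24 h (51.2 and 54.8) and the nitrite libraries of 24 h (116.7 to 120.6).

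**Figure D5:**
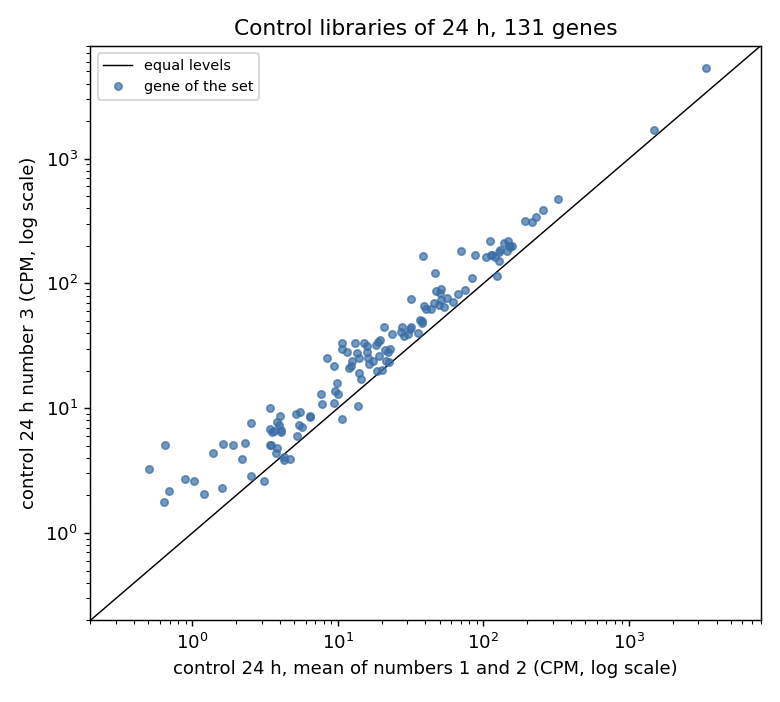
CPM of the 131 genes in control 24 h number 3 (vertical axis) against the mean of control 24 h numbers 1 and 2 (horizontal axis), both on log scales, with the line of equal levels. Most points lie above the line; number 3 was the highest control library in 121 genes.

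The same tilt was seen, less strongly, in the like groups of genes. Control 24 h number 3 was the highest control library in 78.8% of the 345 genes with the nitrite ratio only, at 1.30 times the other 2 at the median. In the 427 genes with the control ratio only it was the highest in 57.6%, at 1.09 times. The cases that differed most in the set, named after their values were seen, include Cre02.g095140 with 166 CPM in number 3 against 35.4 and 41.9 CPM. With nitrite at 24 h that gene was at 562, 554 and 557 CPM. Cre14.g611200, at 219 against 97.3 and 125 CPM, and Cre03.g197850, at 183 against 66.8 and 72.7 CPM, were similar. Without control 24 h number 3 the rule again found 131 genes, of which 107 were the same.

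Some of the genes were immediate neighbours. In the annotation 5 pairs had no gene between them, separated by 48 to 780 bp. Such pairs were not counted in other sets of genes, so the number is a description only. On chromosome 9, Cre09.g398993 (5146346 to 5150707) averaged 74.9 ± 10.1 CPM with nitrite at 24 h and 18.2 ± 13 CPM without. Its neighbour Cre09.g399030 (5150756 to 5154417) averaged 771 ± 24.8 CPM with nitrite and 234 ± 71.7 CPM without. On chromosome 10, Cre10.g428966 (1519916 to 1528781) averaged 280 ± 57.6 CPM with nitrite and 21.3 ± 10.6 CPM without, a ratio of 12.8. Its neighbour Cre10.g429000 (1528836 to 1534021) averaged 514 ± 91.7 CPM with nitrite and 70.9 ± 43.0 CPM without, a ratio of 7.20. Both had nitrite libraries above control libraries at 3 h without a call, at 1.10 (SE 0.34) and 0.88 (SE 0.29) on the log2 scale, edgeR adjusted p = 0.0754 and 0.0902.

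On chromosome 12, Cre12.g517681 (4070174 to 4072705) lies beside Cre12.g517700. It averaged 69.2 ± 5.97 CPM with nitrite at 24 h and 22.8 ± 0.883 CPM without. At 3 h it had 9.43, 3.83 and 10.0 CPM with nitrite and 2.94, 4.68 and 5.93 CPM without, so the arms overlapped through nitrite number 2. At 3 h edgeR gave 0.83 (SE 0.35, adjusted p = 0.165) on the log2 scale, and 1.39 (SE 0.24, adjusted p = 0.0028) without the 3 libraries named above. The remaining pairs, Cre03.g150101 with Cre03.g150151 and Cre04.g215650 with Cre04.g215600, had nitrite ratios of 8.74 and 9.34, and of 5.22 and 4.05. At 3 h Cre04.g215600 was higher with nitrite than without (0.93, SE 0.21, edgeR adjusted p = 0.0255), while Cre04.g215650 was at -0.63 (SE 0.27, edgeR adjusted p = 0.211). Whether reads that run past the annotated end of a gene add to its neighbour was not tested.

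All 131 genes had a position. They lay on 17 chromosomes and 1 unplaced sequence, from 1 gene on chromosomes 11 and 15 to 17 genes on chromosome 3. As a share of the features tested on each chromosome, they made up 0.247% on chromosome 11 and 1.85% on chromosome 7, which held 16. The median annotated span was 4426 bp, against 4688 bp over all features tested with a span.

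None of the pathway loci entered from prior knowledge was in the set, which held 0.966% of all features tested. With so small a share, the absence of these few loci is no result about the pathways. Over all features tested, 5.24% met the condition over time and 3.79% the nitrite condition. The 7 lists held 31 loci, of which 26 had enough reads to test, and the files cannot check their assignment. Those for the glyoxylate cycle and acetate use, which turns acetate into precursors of sugars, had a median nitrite ratio of 2.08 and a median control ratio of 1.04 over 6 loci. In that list 2 loci met the nitrite condition and 0 the condition over time. For autophagy, the breakdown of cell contents in the vacuole, 3 of 5 loci met the condition over time, and the list's median ratios were 3.13 for the control and 2.23 for nitrite, just short of the limit. For storage lipid 1 of 3 tested loci met the condition over time and 0 the nitrite condition. No tested locus of the lists for alternative oxidase (2), nitrate and nitrite (2), nitric oxide (3) or fermentation (5) met either condition. At 3 h, 2 of the 26 loci were called higher with nitrite and 0 lower, 1 in the acetate list and 1 in the autophagy list, against 1.95% of all features up.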

How the data were processed

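Per the labels' protocols, mRNA was made into stranded TruSeq libraries. TopHat2 2.0.13 (alignment of spliced reads) and HTSeq (counting) are named in the submitters' processing notes. The genome build, how strand was set and what became of multiply aligned reads are not given in the sources used. What the authors deposited are raw counts of reads per gene for 17766 features per library. The 5 closing lines that name no gene were left out; as a share of all reads, those outside genes were 0.892% to 1.67% and those ambiguous between genes 0.0597% to 0.439%; multiply aligned reads are given above. Genes that overlap or have near-identical copies can have lost reads.

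Features were filtered with edgeR's filterByExpr by group, which left 13564, and scaled by TMM (factors 0.604 to 1.44; 0.660 to 0.822 in the nitrite libraries of 24 h). CPM use these factors. Tests used edgeR 4.0.16 in R 4.3.3: a quasi-likelihood F test with robust spread on all 18 libraries with a mean per group, and Benjamini-Hochberg values over all 13564 features. A gene was called higher (up) or lower (down) where the adjusted p was under 0.05. The standard error is the log2 fold change over the square root of F. Tests and the rule were tried on simulated counts. Alternatives included limma 3.58.1 (voom) and DESeq2 1.42.0.

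The members, gene lists and the libraries that stand apart were chosen with earlier results of these data known. Named are the genes with the most reads, the largest ratios, the lowest p in each comparison, the closest neighbours and those nearest the limits; others are said to be chosen after their values were seen. Of 17741 nuclear identifiers, 17738 matched a locus tag. No 2 libraries of a group agreed within sampling noise (chi-square per degree of freedom at least 4.11).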

Additional observations from a re-analysis of the deposited data

How the results depend on the processing

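The number of genes that met the rule depended on scaling. Without scaling beyond library totals it was 58, all among the 131, because the median log2 ratio of all features then moved to -0.39 for nitrite over control at 24 h and to -0.26 for control 24 h over 15 min. All 131 genes stayed above 0 in both. With limits of 2 or 3 in place of 2.5 the rule found 291 or 75 genes, and with 1 library left out 127 to 137. In all, 89 of the 131 met the rule in every one of those 9 fits. For nitrite against control at 3 h, 9 genes were called up without scaling (0.487% of all features), where the median over members was 0.85 and that over all features 0.29. DESeq2 called 36 up (4.22% of all features) and a fit of only the 2 groups 1 (0.0147%). With 1 library left out the count ran from 4 to 24, and the median from 0.52 to 0.60. The 4 came without control 3 h number 2, where 0.0369% of all features were called up. The 24 came without control 3 h number 1, where 6.13% of all features were called up and 4.15% down. With the replicate number as a block 14 were called up (1.11% of all features). Same-numbered libraries deviated with correlations of -0.00462, -0.0586 and 0.0758 at 3 h. Between the nitrite libraries of 3 h and 15 min the correlations were -0.469, -0.769 and -0.392. Number 2 at each time there lies with the other, so whether the number follows a flask cannot be told from these values. No block by number gave a call in the nitrite arm between 15 min and 3 h, where leaving out the 3 libraries that stand apart gave 15 up and 8 down. With 3 libraries a group, a difference that missed the threshold is not shown to be absent.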

Other observations

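Cre04.g220850 (chromosome 4, 2349627 to 2357985) met the rule through 1 library of 24 h. It had 71.4 CPM in nitrite 24 h number 1, against 14.1 and 17.9 CPM in numbers 2 and 3, and 12.4, 14.9 and 10.5 CPM in the control libraries of 24 h. Number 1 of the nitrite arm was also the highest at 15 min, at 110 CPM against 7.73 and 3.01 CPM, and at 3 h, at 20.3 CPM against 3.64 and 6.54 CPM. The control libraries of these times were at 2.87 to 6.2 CPM. Over numbers 2 and 3 alone the nitrite mean at 24 h was 16 CPM, a ratio of 1.26 to the control mean. It was the only member whose nitrite level at 24 h was below that at 15 min. This gene was chosen after its values were seen.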
